A study of Mus musculus with 2 samples.

Results

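The genes of the tumour necrosis factor (TNF) superfamily, the Toll-like and NOD-like receptors and the NF-κB signalling machinery were examined in RNA-seq of astrocytes cultured from the mouse dentate gyrus. Members were taken by their symbols: the Toll-like receptors (Tlr), every symbol starting with Tnf or Nfkb, Rel, Rela and Relb, Traf1 to Traf7, the RIP kinases, Nod1 and Nod2, the Nlrp genes, Myd88, the Irak genes and the IκB kinases with Chuk. This rule, which uses no measured value, found 92 of the 16302 gene symbols listed in at least 1 of the 2 expression tables. The study compared wild-type (WT) C57BL/6 mice with C57BL/6 mice carrying a knockout of β-arrestin1 (β-arr1 KO), a scaffold protein of G protein-coupled receptors. Astrocytes of the dentate gyrus, the hippocampal region that holds the adult neural stem cell niche, were grown in culture, and 1 amplified cDNA library was sequenced for each genotype. No other treatment, age or time point separates the libraries in the labels. The deletion is carried by the whole animal and not by astrocytes alone, and a culture of primary glia keeps some other brain cells.

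TNF superfamily ligands bind trimeric receptors, and Toll-like receptors bind microbial products such as lipopolysaccharide, lipopeptides and RNA. Both routes use adaptor proteins (MyD88 and IRAK kinases downstream of Toll-like receptors, TRAF proteins and RIP kinases downstream of both) to activate the IκB kinase complex. That kinase marks IκB proteins for degradation, which frees NF-κB dimers to enter the nucleus and switch on inflammatory genes, among them the genes of IκBα and A20, which shut the signal off again. In brain, microglia carry most of the Toll-like receptors, while astrocytes also respond to TNF and express some of them.

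Levels are given in FPKM, fragments per kilobase of transcript scaled to the size of the library, which is a level per length and can be set side by side between genes. With 1 library per genotype there is no replicate check and no test of a difference between genotypes. Differences are therefore given as the ratio of KO to WT FPKM. A gene was said to lie past the limits when its ratio was above 3/2 or below 2/3, the limits the study used. At least 1 FPKM in at least 1 library was also required here. That minimum was not taken from the study, and the genes analysed and the counts past a limit differ from those of the study. Beside the ratios stand 95% exact Clopper-Pearson intervals from estimated fragment counts. They cover counting error only, and not the difference between cultures or animals.

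Of the 92 members, 83 were listed in both tables and 65 of these reached 1 FPKM in at least 1 library. Most members differed little between genotypes: 57 of the 65 lay within the limits, 1 lay above and 7 lay below. Over all 12171 genes analysed, 7.90% lay above 3/2 and 6.74% below 2/3, against 1.54% and 10.8% of the members. KO was below WT in 36 members and above it in 29, and 46.9% of all genes were below WT. The median log2 ratio was -0.03 for the members and 0.02 for all genes. The interval of 9 members lay above 1 and that of 15 lay below 1, out of 64 with an interval, against 22.2% and 18.3% of all genes with one. The 7 under 2/3 were the receptors Tlr8, Tnfrsf18 and Nod1, the kinase Ripk3, the TNF-induced family genes Tnfaip2 and Tnfaip8l2, and the entry Nlrp1c. The WT entry of Nlrp1c also covered Nlrp1b. Tlr8 and Nlrp1c were under 1 FPKM in KO and were analysed through WT alone. With 1 FPKM required in both libraries, both leave the set, 63 members remain, and 5.35% of all genes lay below 2/3. The IκB kinases, NF-κB subunits and IκB proteins all lay within the limits.

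**Figure D1:**
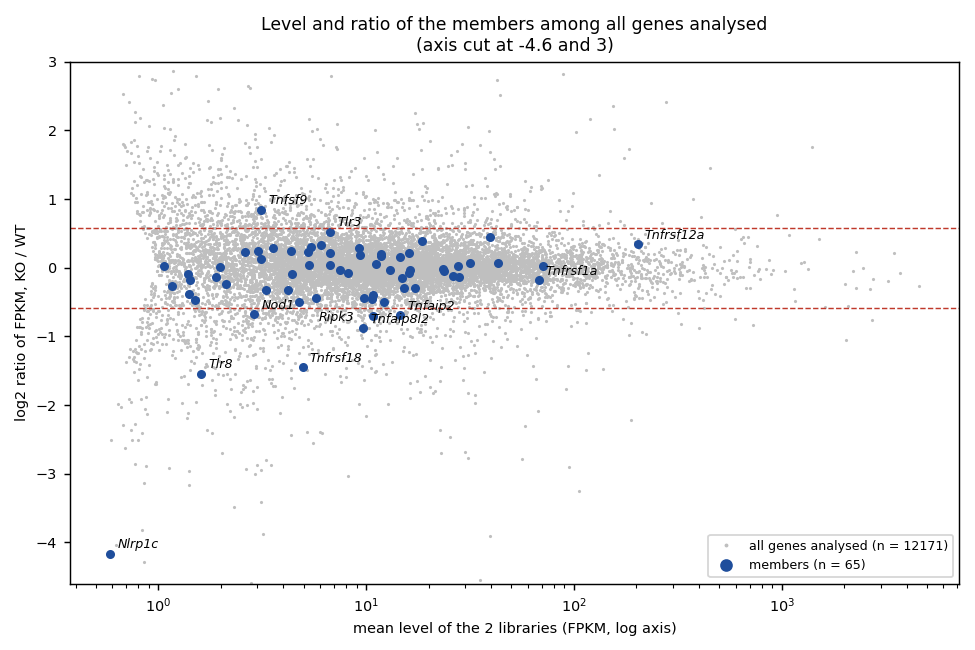
Mean FPKM of the 2 libraries (log axis) against the log2 ratio of KO to WT for the 65 members (blue) and all 12171 genes analysed (grey), with dashed lines at ratios of 3/2 and 2/3; the axis leaves out 28 genes. Members spread along most of the range of levels, from Nlrp1c near the floor to Tnfrsf12a at the top, and 7 of them lie under the lower line.

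The libraries were of similar depth, with estimates of 9.38 M and 9.52 M fragments (M, mega) in WT and KO. Arrb1, the deleted gene, was at 7.62 FPKM in WT against 2.72 FPKM in KO, a ratio of 0.358 (0.300 to 0.425). Of the astrocyte markers, 10 of 11 were listed (Fabp7 was not), with Gfap at 189 and 192 FPKM, a summed level of 396 and 420 FPKM and 4 of 10 genes above 3/2. Markers of microglia and macrophages were abundant in both cultures: all 20 listed of 21 (Adgre1 appears under its older symbol Emr1) were above 1 FPKM, from P2ry12 at 2.67 and 2.46 FPKM to Tyrobp, a microglial signalling adaptor, at 317 and 219 FPKM. The 20 summed to 2354 FPKM in WT against 1806 FPKM in KO, and 19 of them were below WT. Pericyte and fibroblast markers, led by Acta2, summed to 3116 and 2822 FPKM with 5 of 7 analysed genes below 2/3. Endothelial markers summed to 59.7 and 53.3 FPKM, of which Cdh5 made up 31.8 and 16.1 FPKM, while 6 of the 8 analysed were above WT, 3 of them above 3/2, with a median log2 ratio of 0.53. Oligodendrocyte-lineage markers, led by Olig1, summed to 82.6 and 119 FPKM, with 4 of 7 analysed genes above 3/2 and a median log2 ratio of 0.78. Neuronal markers, almost wholly Tubb3, summed to 45.4 and 60.8 FPKM. In bulk RNA, fewer cells of a type and less RNA per cell cannot be told apart.

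The TNF ligands were low, and most of the 11 listed were near the floor. Only 5 reached 1 FPKM. Tnfsf12, which encodes TWEAK, was the highest at 10.9 FPKM in WT against 11.4 FPKM in KO, a ratio of 1.04. Tnf itself was at 5.58 FPKM in WT against 3.94 FPKM in KO. Its ratio of 0.706 was just inside the lower limit, and with an estimated 76 and 56 fragments the interval of 0.491 to 1.01 reached across 1. Tnfsf9, the ligand of the co-stimulatory receptor 4-1BB, was the single member above 3/2. It was at 2.24 FPKM in WT against 4.03 FPKM in KO, a ratio of 1.80 (1.05 to 3.16). That value rests on an estimated 22 and 42 fragments. Its locus in both tables, chr17:57244808-57247180 of the mouse build mm9, overlaps the gene model Gm11110, and when both entries were summed the ratio was 1.38, inside the limits. Tnfsf15 (1.59 and 1.23 FPKM) and Tnfsf18 (1.05 and 1.08 FPKM) were close to the minimum.

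The TNF receptors included the most abundant member. Of the 12 analysed, 9 (75%) were below WT, against 46.9% of all genes, with a median log2 ratio of -0.16. Tnfrsf12a, the receptor for TWEAK, was the highest of all members. It was at 178.7 FPKM in WT against 226 FPKM in KO, a ratio of 1.27 (1.18 to 1.36), and its locus overlaps that of Hcfc1r1, with which it summed to a ratio of 1.16. This receptor was thus above WT while its ligand Tnfsf12 was near WT in both tables, and neither lay past a limit. Tnfrsf1a, the broadly expressed TNF receptor with a death domain, was at 71.8 FPKM in WT against 63.4 FPKM in KO, a ratio of 0.883 (0.816 to 0.956). Tnfrsf1b, the second TNF receptor, which is more restricted to immune and glial cells, was at 14.3 FPKM in WT against 10.1 FPKM in KO, a ratio of 0.704 (0.612 to 0.810), the nearest of all members inside the lower limit. Both receptors for TNF were therefore below WT with intervals that left out 1, within the limits.

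Tnfrsf18 was the one TNF receptor past a limit. It encodes GITR, a co-stimulatory receptor known from T cells, and was at 7.23 FPKM in WT against 2.65 FPKM in KO. The ratio of 0.367 (0.226 to 0.581) lay wholly under 2/3, although it rests on an estimated 68 and 27 fragments. The 2 tables give its locus different bounds, chr4:155399981-155403443 in WT and chr4:155399056-155405725 in KO. Its ligand, Tnfsf18, had a ratio of 1.02.

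The remaining TNF receptors lay within the limits. Tnfrsf11b, which encodes the secreted decoy receptor osteoprotegerin, was at 16.9 FPKM in WT against 13.7 FPKM in KO, a ratio of 0.813 (0.703 to 0.939). Tnfrsf21, the death receptor DR6, was at 8.34 FPKM in WT against 10.2 FPKM in KO, a ratio of 1.22 (1.04 to 1.44). Tnfrsf19, also called TROY, had a like ratio of 1.22 at 3.22 and 3.93 FPKM. These and Tnfrsf12a were the 3 receptors above WT. Among the others, Tnfrsf10b, a receptor for the death ligand TRAIL, was at 24.1 and 23.4 FPKM and Tnfrsf23, a mouse decoy receptor for TRAIL, at 29.4 and 26.7 FPKM. Tnfrsf11a, the receptor RANK, was at 4.51 and 4.24 FPKM, Tnfrsf26 at 4.70 and 3.74 FPKM and Tnfrsf14, the receptor HVEM, at 1.74 and 1.26 FPKM.

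The TNF-induced (Tnfaip) genes included levels close to WT and levels under the lower limit. Tnfaip1, an adaptor of a ubiquitin ligase, was the highest at 70.6 FPKM in WT against 71.9 FPKM in KO, a ratio of 1.02. Tnfaip3, which encodes the deubiquitinase A20 that ends NF-κB signalling, was at 8.36 and 7.91 FPKM, a ratio of 0.946 (0.830 to 1.08). Tnfaip8 (8.78 and 9.96 FPKM), Tnfaip6 (1.98 and 1.99 FPKM), which encodes a hyaluronan-binding secreted protein, and Tnfaip8l1 (1.43 and 1.35 FPKM) also lay within the limits. Those 5 had ratios close to 1, and 2 other genes named for induction by TNF or relation to it lay under 2/3. Tnfaip2 was at 18.0 FPKM in WT against 11.1 FPKM in KO, a ratio of 0.619 (0.545 to 0.704), with the same locus, chr12:112680872-112693229, in both tables. Tnfaip8l2 encodes TIPE2, a brake on Toll-like receptor signalling in immune cells, and was at 12.6 FPKM in WT against 6.83 FPKM in KO, a ratio of 0.543 (0.393 to 0.746). Its locus began at a lower coordinate in KO (chr3:94942335-94946282) than in WT (chr3:94943443-94946282) and reached further into Lysmd1, and the sum of both genes had a ratio of 0.564.

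**Figure D2:**
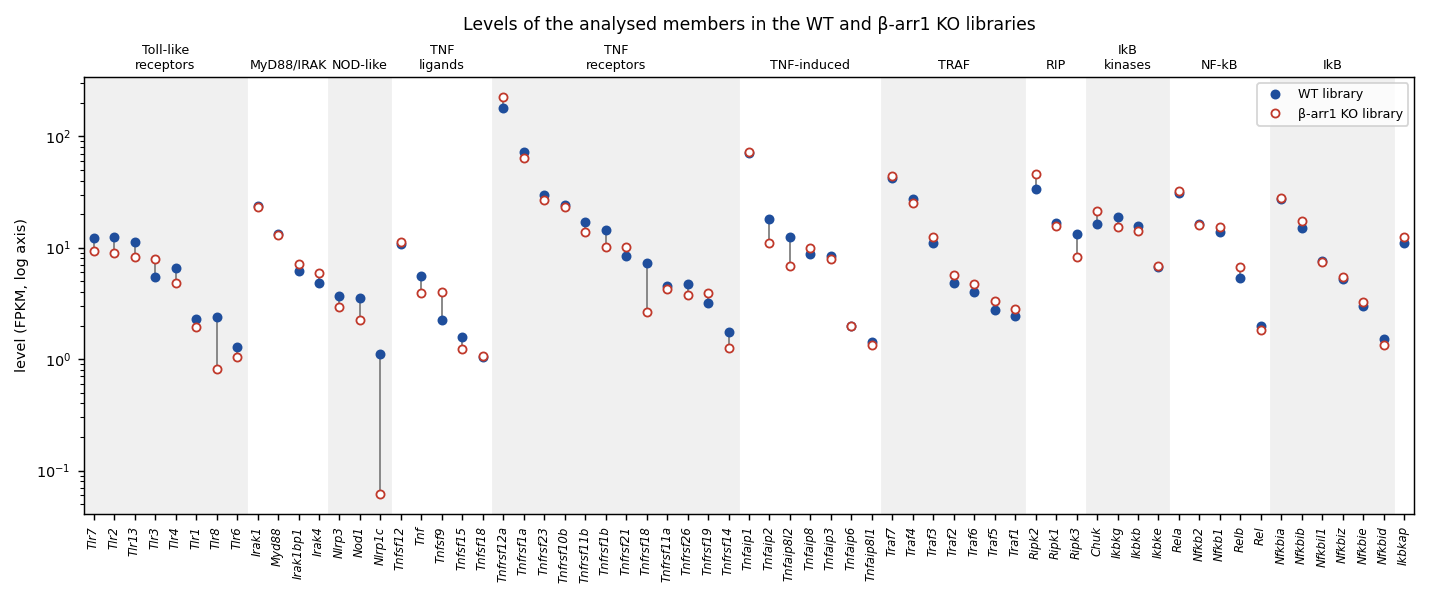
FPKM of the analysed members in the WT and KO libraries (log axis), grouped by role, with 1 point per library. Tnfrsf12a is the highest member at 178.7 FPKM in WT against 226 FPKM in KO, and the Toll-like receptors other than Tlr3 have their KO point below their WT point.

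The Toll-like receptors were below WT in 7 of 8 analysed members, and their median log2 ratio was -0.42 against 0.02 for all genes. The 4 most abundant in WT had ratios within a narrow band. Tlr2, which senses bacterial lipopeptides, was at 12.4 FPKM in WT against 9.02 FPKM in KO, a ratio of 0.727 (0.614 to 0.860). Tlr7, a sensor of single-stranded RNA, was at 12.3 FPKM in WT against 9.32 FPKM in KO, a ratio of 0.757 (0.654 to 0.875). Tlr13, which senses bacterial ribosomal RNA in mice, was at 11.2 FPKM in WT against 8.28 FPKM in KO, a ratio of 0.741 (0.637 to 0.861). Tlr4, the lipopolysaccharide receptor, followed at 6.58 FPKM in WT against 4.85 FPKM in KO, a ratio of 0.737 (0.605 to 0.898). All 4 intervals left out 1, and none of the 4 ratios passed a limit.

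Tlr8 was the receptor that differed most. It was at 2.39 FPKM in WT against 0.819 FPKM in KO, a ratio of 0.343 (0.210 to 0.543) from an estimated 73 and 26 fragments, with the interval wholly under 2/3. Its locus on the X chromosome ran from 163679238 to 163702184 in WT and from 163680664 to 163701720 in KO. Tlr1 (2.28 and 1.95 FPKM) and Tlr6 (1.27 and 1.05 FPKM), which pair with TLR2, had ratios of 0.853 and 0.828. Tlr3, the sensor of double-stranded RNA and the one family member that signals without MyD88, lay on the other side. It was at 5.49 FPKM in WT against 7.88 FPKM in KO, a ratio of 1.44 (1.20 to 1.72), which left out 1. No other member lay closer to the upper limit from inside.

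The levels of the microglia and macrophage markers stood in the same direction as those of the receptors. Their ratios ran from 0.629 to 1.05 with a median log2 ratio of -0.35, and Emr1 (0.629) and Cd68 (0.645) lay past the lower limit. The summed level of the 20 listed markers was 2354 FPKM in WT against 1806 FPKM in KO. The part of these cells in the receptor ratios was not tested. The same holds for Tnfrsf1b, Tnfaip8l2 and the inflammasome genes, which immune cells also express.

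**Figure D3:**
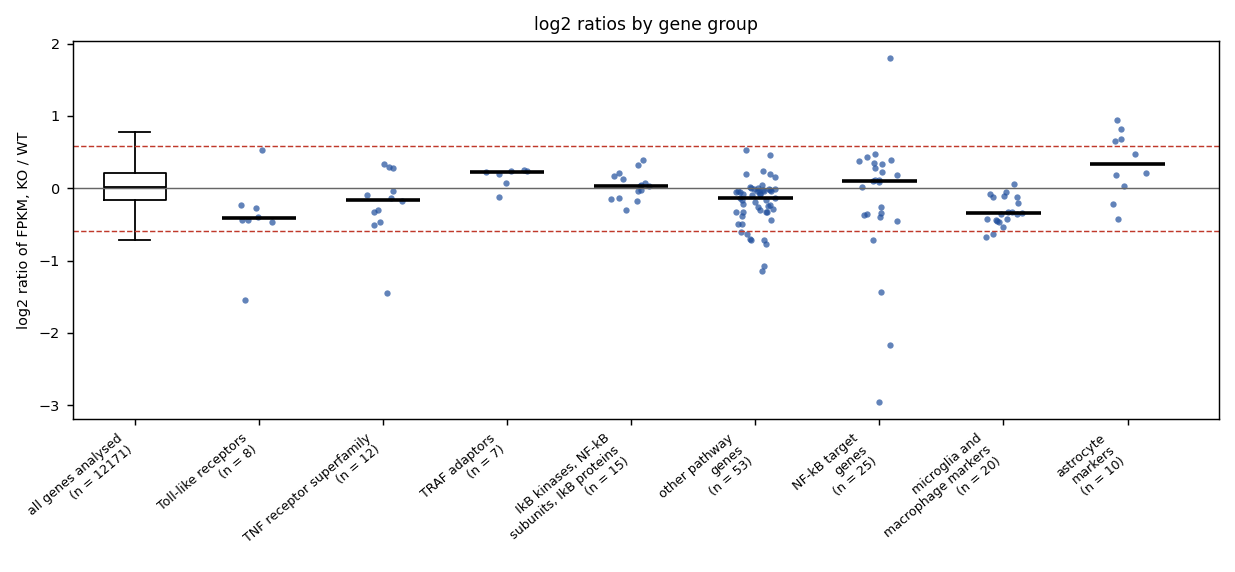
Log2 ratios of KO to WT for single genes (points) in 6 gene groups of the pathway and in microglia and astrocyte markers, with a bar at each median and a box with whiskers for all 12171 genes analysed; dashed lines mark ratios of 3/2 and 2/3. The Toll-like receptors (median -0.42) and the microglia and macrophage markers (median -0.35) lie below the line at 0, and the TRAF adaptors (median 0.23) lie above it.

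NOD-like receptors, which sense microbial and damage signals inside the cell, were low. Only 3 of the 12 listed reached 1 FPKM, Nlrp1c in WT alone, and all 3 were below WT. Nod1, a sensor of bacterial peptidoglycan, was at 3.57 FPKM in WT against 2.23 FPKM in KO, a ratio of 0.624 (0.473 to 0.821), from the same locus, chr6:54873936-54922606, in both tables. With 1 FPKM added to both values its ratio was 0.707, inside the limits. Nlrp3, the sensor of the best-known inflammasome, was at 3.67 and 2.94 FPKM, a ratio of 0.801 (0.616 to 1.04). Nlrp1c was listed at 1.11 FPKM in WT against 0.0620 FPKM in KO, a ratio of 0.0559, the lowest of all members. Its entries do not cover the same stretch, however. The WT entry (chr11:70966536-71098734) spanned its neighbour Nlrp1b, while KO had separate entries for Nlrp1c (chr11:71055932-71098734) and for Nlrp1b at 0.410 FPKM (chr11:70966604-71044235). The 2 KO entries summed to 0.472 FPKM, 0.425 of the WT value, and reads of these near-identical neighbours could have been divided between them differently in each table.

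The MyD88 and IRAK proteins, which carry the signal from Toll-like receptors, lay near WT. Myd88 was at 13.2 FPKM in WT against 12.9 FPKM in KO, a ratio of 0.977, and Irak1 at 23.7 and 23.4 FPKM, a ratio of 0.986. Irak4, the first kinase of the chain, was at 4.85 and 5.99 FPKM, a ratio of 1.23 (0.989 to 1.54). The IRAK1-binding protein gene Irak1bp1 was at 6.21 and 7.21 FPKM. Irak2 was listed in WT alone, at 17.03 FPKM. In the KO table a single entry for its neighbour Tatdn2 (chr6:113588461-113661062) covered both genes at 27.6 FPKM, whereas WT had Irak2 (chr6:113588461-113645020) and Tatdn2 at 19.97 FPKM in separate entries, so no ratio can be given for Irak2. Irak3, which dampens the pathway, was listed in KO alone at 0.801 FPKM.

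TRAF adaptors, some of which link both receptor families to kinases, were mostly a little above WT. Of 7 genes, 6 were above WT, the ratios ran from 0.920 to 1.19 and the median log2 ratio was 0.23. Of the 7 counting intervals, 6 included 1, and only that of Traf3 left it out. Traf7 was the highest at 41.9 FPKM in WT against 44.1 FPKM in KO, a ratio of 1.05. Traf3, a negative regulator of the alternative NF-κB route, was at 10.9 FPKM in WT against 12.5 FPKM in KO, a ratio of 1.14 (1.03 to 1.27). Traf6, the TRAF used by MyD88, was at 3.97 and 4.70 FPKM, and Traf2, which binds TNF receptor complexes, at 4.82 and 5.66 FPKM. Their ratios of 1.18 and 1.17 were like those of Traf1 (2.42 and 2.83 FPKM) and Traf5 (2.77 and 3.29 FPKM). Traf4 was the exception, at 27.2 FPKM in WT against 25.0 FPKM in KO, a ratio of 0.920. No TRAF gene lay past a limit.

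RIP kinases lay on both sides of 1. Ripk2, the kinase that NOD1 and NOD2 use, was at 33.4 FPKM in WT against 45.4 FPKM in KO, a ratio of 1.36 (1.24 to 1.49). Ripk1, which acts at the TNF receptor and whose locus overlaps that of Serpinb6a, was at 16.5 and 15.6 FPKM, a ratio of 0.944, and of 0.856 when both entries were summed. Ripk3, the kinase of necroptosis, a regulated form of lytic cell death, was at 13.4 FPKM in WT against 8.26 FPKM in KO. Its ratio of 0.617 (0.496 to 0.764) lay past the lower limit, and both tables gave the locus as chr14:56403832-56407694. Thus Ripk2 was above WT while Nod1, the receptor upstream of it, was below.

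The IκB kinases showed no common direction. Chuk, which encodes the catalytic subunit IKKα, was at 16.2 FPKM in WT against 21.1 FPKM in KO, a ratio of 1.31 (1.16 to 1.47). Ikbkb, for the catalytic subunit IKKβ, was at 15.7 and 14.2 FPKM, a ratio of 0.904 (0.810 to 1.01). Ikbkg, for the regulatory subunit NEMO, was at 18.9 FPKM in WT against 15.4 FPKM in KO, a ratio of 0.814 (0.748 to 0.886). Its locus overlaps that of G6pdx, and the 2 entries summed to 57.3 FPKM in WT against 57.6 FPKM in KO, a ratio of 1.005, so its direction depends on how reads were divided between these genes. No gene of the complex lay past a limit. Ikbke, an IKK-related kinase of the antiviral response, had a ratio of 1.03 at 6.65 and 6.82 FPKM, and Ikbkap, which is named for the complex but encodes a subunit of Elongator, was at 11.05 and 12.4 FPKM.

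NF-κB subunit genes stayed within the limits. Rela, the main activating subunit, was at 30.7 FPKM in WT against 32.4 FPKM in KO, a ratio of 1.05. Nfkb1, the precursor of p50, was at 13.8 and 15.4 FPKM, a ratio of 1.12 (0.992 to 1.26), and Nfkb2, the precursor of p52 in the alternative route, at 16.4 and 16.04 FPKM, a ratio of 0.977. Relb, the partner of p52, was at 5.37 FPKM in WT against 6.74 FPKM in KO, a ratio of 1.26 (1.01 to 1.56). Rel, which is mainly a lymphoid and myeloid subunit, was the lowest at 1.99 and 1.81 FPKM. Relb was the one subunit with an interval that left out 1.

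The IκB proteins hold NF-κB in the cytoplasm or, for the atypical members, act in the nucleus. None of the 6 lay past a limit, and their ratios ran from 0.881 to 1.16. Nfkbia, for IκBα, which is itself switched on by NF-κB, was at 27.4 FPKM in WT against 27.9 FPKM in KO, a ratio of 1.02 (0.879 to 1.18). Nfkbib was at 14.9 and 17.3 FPKM, a ratio of 1.16, and Nfkbie at 2.98 and 3.24 FPKM, a ratio of 1.09. The nuclear members Nfkbiz (5.25 and 5.41 FPKM) and Nfkbid (1.51 and 1.33 FPKM) and the related Nfkbil1 (7.58 and 7.44 FPKM) had ratios of 1.03, 0.881 and 0.981. Pooled with the IκB kinases and NF-κB subunits, these 15 genes had a median log2 ratio of 0.04, with 6 below WT.

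**Figure D4:**
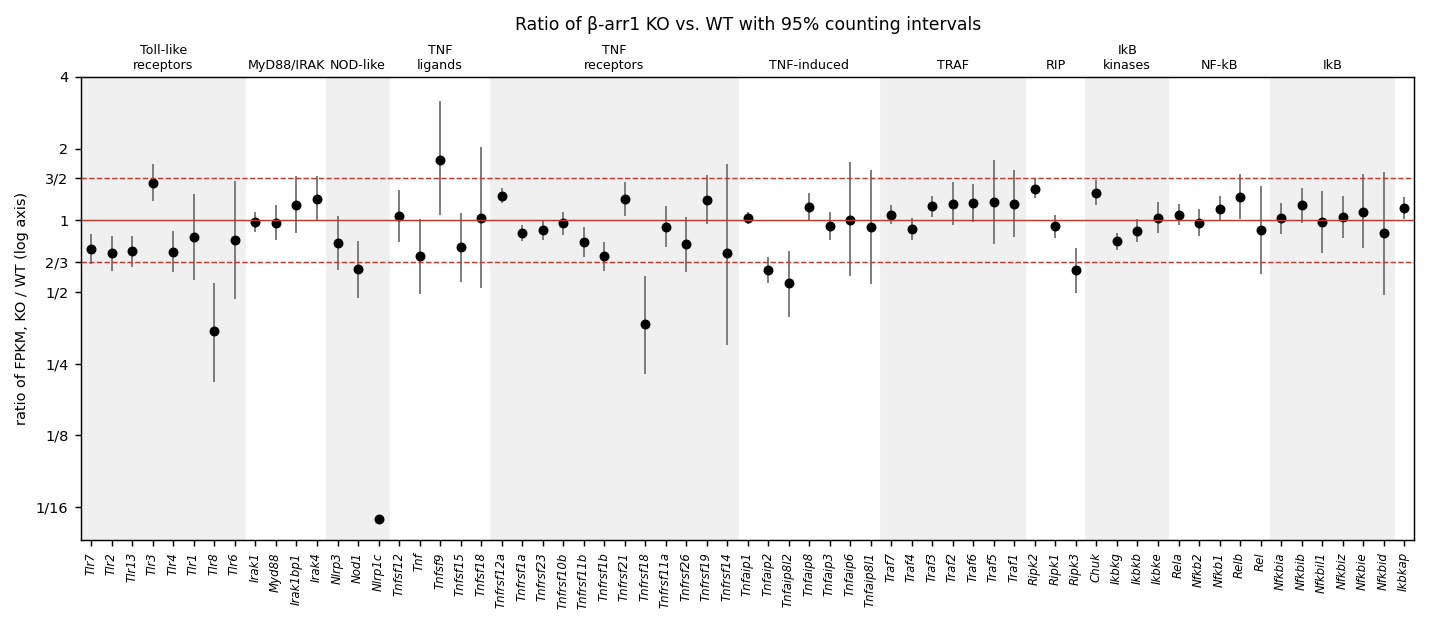
Ratio of KO to WT FPKM (log axis) for the analysed members by role, with 95% counting intervals as bars and dashed lines at 3/2 and 2/3. The intervals of Tlr8 and Tnfrsf18 lie wholly under the lower line, and those of the NF-κB subunits other than Relb and of the IκB proteins include 1.

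The start sites of the genes for the feedback inhibitors and some receptors carry matches to the NF-κB consensus, and their sequences are shown because their levels can be read against a feature that the choice of members did not use. Windows of 250 bases before the RefSeq start sites (GRCm38.p6 table) were searched for GGGNNNTTCC on both strands. Of the 92 members, 73 matched a window, and 16 of them (21.9%) held the motif, against 5.31% of 27025 genes. Per window the shares were 20.2% of 94 member windows and 4.65% of 32851 windows. The 5 windows printed here are those of 3 feedback or signalling genes and of 2 receptors that lay on opposite sides of WT. Each matched the NCBIM37 genome (mm9) exactly once, is written 5′ to 3′ on the strand of the gene, and ends at the base before the start site, with the matches in capitals. Nfkbia lies at chr12:56593635-56593884 on the minus strand, Tnfaip3 at chr10:18735217-18735466 on the minus strand, Nfkb2 at chr19:46378977-46379226 on the plus strand, Tlr2 at chr3:83645531-83645780 on the minus strand and Tlr3 at chr8:46495735-46495984 on the minus strand.
Nfkbia: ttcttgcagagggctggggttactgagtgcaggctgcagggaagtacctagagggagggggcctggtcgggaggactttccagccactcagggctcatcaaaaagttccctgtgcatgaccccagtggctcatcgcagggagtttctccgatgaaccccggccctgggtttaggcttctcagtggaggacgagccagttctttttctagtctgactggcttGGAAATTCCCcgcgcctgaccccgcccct
Tnfaip3: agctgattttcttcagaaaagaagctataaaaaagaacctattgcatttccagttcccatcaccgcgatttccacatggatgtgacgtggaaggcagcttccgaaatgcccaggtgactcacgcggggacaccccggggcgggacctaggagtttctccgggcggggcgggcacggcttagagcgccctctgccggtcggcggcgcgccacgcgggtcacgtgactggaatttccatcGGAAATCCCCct
Nfkb2: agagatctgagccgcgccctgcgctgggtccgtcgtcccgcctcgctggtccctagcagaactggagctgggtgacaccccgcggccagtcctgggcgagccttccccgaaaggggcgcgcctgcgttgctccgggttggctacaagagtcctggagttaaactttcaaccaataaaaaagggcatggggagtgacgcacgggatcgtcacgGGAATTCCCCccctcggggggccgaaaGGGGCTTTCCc
Tlr2: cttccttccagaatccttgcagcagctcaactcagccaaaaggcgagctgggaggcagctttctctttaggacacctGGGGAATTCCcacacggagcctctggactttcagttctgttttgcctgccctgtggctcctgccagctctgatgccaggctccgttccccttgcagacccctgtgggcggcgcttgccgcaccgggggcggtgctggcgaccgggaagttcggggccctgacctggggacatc
Tlr3: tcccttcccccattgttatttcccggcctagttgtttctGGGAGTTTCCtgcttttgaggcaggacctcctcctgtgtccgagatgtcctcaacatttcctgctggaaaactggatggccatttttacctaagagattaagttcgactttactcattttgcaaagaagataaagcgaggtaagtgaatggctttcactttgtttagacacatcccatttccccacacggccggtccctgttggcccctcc

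The first base of the match lay 29 bases before the start site in Nfkbia, 12 in Tnfaip3, 173 in Tlr2 and 211 in Tlr3, and Nfkb2 held 2 matches at 38 and 11. The Tlr3 window lies partly inside the Tlr3 locus in WT (chr8:46481019-46495893) and wholly inside that in KO (chr8:46481019-46496089). Its match is therefore upstream of the RefSeq start site but within the KO locus. A match is a description of these letters, and a window without one holds no such letters in these 250 bases. Of the analysed members with a match, 7 were above and 7 below WT. Their ratios ran from 0.727 for Tlr2 to 1.44 for Tlr3, which both hold a match. Among the 36 analysed members with a window but no match, 22 were below WT and the median log2 ratio was -0.09. Windows were matched for 6 of the 8 members past a limit, and 0 of the 6 held the motif. Over all analysed members with a window, 14 of 50 held it, and 5.31% of all genes did. With only 6 genes, this was not read as a difference.

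The members under 1 FPKM were mostly genes of lymphocytes and of rarer sensors. The 18 listed in both tables but under the minimum included Tlr5, the flagellin receptor, at 0.346 and 0.337 FPKM, and Tlr9, the sensor of unmethylated DNA, at 0.667 and 0.463 FPKM. Nod2 was at 0.212 and 0.229 FPKM, Nlrp1a at 0.362 and 0.525 FPKM and Ripk4 at 0.186 and 0.272 FPKM. Tnfrsf25, a death receptor of T cells, was at 0.0732 and 0.497 FPKM, Tnfrsf13b, a B cell receptor, at 0.543 and 0.350 FPKM, and Tnfrsf9, the receptor 4-1BB, at 0.287 and 0.419 FPKM. A difference between genotypes was not read at these levels. Of the 9 members in 1 table only, Irak2 alone reached 1 FPKM.

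Other genes of the same pathways were taken from a list of 67, of which 53 were analysed. None lay above 3/2 and 8 lay below 2/3, and 44 of the 53 were below WT, with a median log2 ratio of -0.13. Those shares were 15.1% below 2/3 and 83.0% below WT, against 6.74% and 46.9% of all genes. The microglia and macrophage markers stood in the same direction (19 of 20 below WT, median log2 ratio -0.35), and their part in these values was not tested. Ly96, which encodes MD-2, the lipopolysaccharide-binding partner of TLR4, was at 11.1 FPKM in WT against 6.54 FPKM in KO, a ratio of 0.587. Cd14, the lipopolysaccharide co-receptor, which is also one of the microglia and macrophage markers, was the highest gene of the list at 78.5 and 62.4 FPKM, a ratio of 0.795, and Lbp, the lipopolysaccharide-binding protein, was at 52.2 and 43.6 FPKM, a ratio of 0.835. Tlr4 and these 3 partners were thus all below WT. Tax1bp1, a partner of A20, was the other of the 3 highest genes, at 54.4 and 53.8 FPKM. Map3k14, the kinase NIK of the alternative NF-κB route, was at 8.24 FPKM in WT against 5.004 FPKM in KO, a ratio of 0.607. Azi2, an adaptor of the TBK1 kinase, was at 20.7 and 13.6 FPKM, a ratio of 0.657, and Zc3h12a, the ribonuclease regnase-1 that degrades inflammatory transcripts, at 7.22 and 3.28 FPKM, a ratio of 0.454. The remaining genes under 2/3 were Nlrc5, Birc3, Irf7, an interferon regulatory factor, and Tnip3, an A20-binding protein. Mavs and Rnf31 were listed in WT alone, at 17.4 and 5.44 FPKM, and in KO the entries of their neighbours Pank2 and Irf9 covered their loci.

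Known NF-κB target genes did not share a direction. Of a list of 35, 25 were analysed, 10 were below WT and the median log2 ratio was 0.11. The shares were 4% above 3/2, 16% below 2/3 and 40% below WT, against 7.90%, 6.74% and 46.9% of all genes. Sod2, the mitochondrial superoxide dismutase, was at 12.9 FPKM in WT against 45.0 FPKM in KO, a ratio of 3.49 (3.14 to 3.89), and was the single target above 3/2. The chemokine genes Ccl20 (2.50 and 0.323 FPKM) and Cxcl10 (2.67 and 0.984 FPKM), the acute-phase gene Saa3 (3.79 and 0.839 FPKM) and the anti-apoptotic gene Birc3, which is in both lists, lay under 2/3. The most abundant targets were within the limits and above WT. Csf1, the growth factor of microglia, was at 172 FPKM in WT against 224 FPKM in KO, a ratio of 1.30. Ptgs2, the inducible cyclooxygenase, was at 110 and 152 FPKM, a ratio of 1.38, and Cd44, a hyaluronan receptor, at 120 and 152 FPKM, a ratio of 1.26.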

How the data were processed

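Total RNA of astrocytes cultured from the dentate gyrus was sequenced as 1 library for each genotype. The authors aligned the reads to the mouse genome mm9 with TopHat 1.4.0, per the submitters' processing notes, and deposited 1 table per library of FPKM per gene with its locus; the version of the program that estimated FPKM is not given in the sources used here. Tables were joined by symbol (16302 symbols, 14448 in both), and the highest entry was kept where a symbol had several. Locus starts were counted from 0 in the files, and 1 was added. The analysis took genes of both tables that reached 1 FPKM in either library (12171). Fragments were estimated from the smallest FPKM steps and transcript lengths, and give counting error only. FPKM levels of a gene whose locus differs between tables, as for 30 of the 65 members, may compare unlike stretches. Members and lists were chosen with earlier results of these data known. Named by rule were members past a limit or nearest inside one, members of 1 table at 1 FPKM or more, the 3 highest of each role and the 10 highest of all, and of the other lists the genes past a limit and the 3 highest; the remaining members are given to account for all. Calculations used Python 3.11.15, numpy 2.4.6, pandas 2.3.3 and scipy 1.17.1, figures matplotlib 3.10.9, and the ratio and interval calculations were tested on simulated data. Alternatives were other minimum levels, pseudocounts, rescalings, limits and ways of treating overlapping or shared loci.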

Additional observations from a re-analysis of the deposited data

How the results depend on the processing

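Named members kept their side of 1, except Tnfaip6 (0.994 to 1.01) and, summed with the overlapping G6pdx, Ikbkg (1.005). The number of members above 3/2, 1 of 65, became 4 with a minimum of 0.1 FPKM, 5 with no minimum, and 0 with a minimum of 5 FPKM, with limits of 2 and 1/2, or with overlapping entries summed for members past a limit (added once the data had been seen). The number below 2/3, 7 of 65, became 12 with a minimum of 0.1 FPKM or none, 4 with a minimum of 5 FPKM, 3 with limits of 2 and 1/2, and 3 with the same locus bounds required in both tables, which leaves fewer genes. Requiring 1 FPKM in both libraries took Tlr8 and Nlrp1c out of the count below 2/3 and left 63 members. Low genes entering or leaving by construction change these counts. The median log2 ratio of the NOD-like receptors became -0.32 and -0.10 with a minimum of 0.1 FPKM and none. That of the RIP kinases, -0.08, became 0.18 under both, when Ripk4 enters. With the same bounds required only Ripk3 remains, and its own value is -0.70. Over all genes, 961 above 3/2 and 820 below 2/3 became 1500 and 1326 with a minimum of 0.1 FPKM, 1572 and 1404 with none, 505 and 422 with a minimum of 5 FPKM, 628 and 544 with 1 FPKM added, 551 and 464 with the same bounds, and 356 and 332 with limits of 2 and 1/2. Among named members, Nod1 came inside the limits with 1 FPKM added (0.707) and Tnfsf9 with overlapping entries summed (1.38). Rescaling the libraries multiplied KO by 0.987 to 1.003. No paired analysis was possible because each genotype has 1 library and no test was made, and no library could be left out. The log2 ratio of Nlrp1c, -4.16, became -2.90 and -0.99 with 0.1 and 1 FPKM added. Members with few fragments, such as Tnfsf9, have wide intervals.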

Other observations

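The genes carry cellular-component annotations, and the members were divided by them after their values were seen. The symbol rule did not use these annotations. Receptors chosen by symbol can carry the membrane terms, however, so the values below are not separate from those of the receptors above. The 22 analysed members annotated as integral to membrane had a median log2 ratio of -0.25, and 15 of them (68.2%) were below WT. The 43 other members had a median of 0.01, and 21 were below WT. Over all genes, 48.5% of the 2435 with this annotation were below WT. The 11 members annotated to the cytosol had a median log2 ratio of 0.07, with 4 (36.4%) below WT, against a median of 0.04 and 44.7% below WT for the 662 genes with that annotation. Other terms examined were plasma membrane (63.6% of members below WT), extracellular region (66.7% of 6 members), cytoplasm (43.2%) and nucleus (47.8%). Over all genes the shares for these terms were 45.5%, 51.1%, 45.8% and 46.5%. No test was made, since each genotype has 1 library.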
